A study of Mus musculus with 38 samples.

Results

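The comparison covers 6 of the 38 arrays of the series: 3 arrays of ribosome-bound RNA from Olig2 cells of the tumour model labelled Recruited and 3 arrays of the same kind from the model labelled Pdgf. The arrays were chosen by their labels alone, and all genes that met the limits on probe sets and level given below were compared. The series holds 12 groups of mouse samples, from normal adult cortex and from variations of a murine glioma model. The tumour groups used here were Recruited bound RNA, Pdgf bound RNA, and the total RNA of each tumour, with 3 arrays in each. All mice were a mixture of the strains C57BL/6J, FVB and Swiss-Webster, and the tumour samples were dissected tumours in which tumour growth had been induced. The labels give no alleles, inducing agent, age or pooling for the tumour mice, nor what separates the Recruited from the Pdgf model beyond these names. Nothing in them says that the 3 arrays of a group came from separate tumours, so the spread between arrays may be partly technical. Each p-value rests on a spread pooled over all 38 arrays in 12 groups, with 26 residual degrees of freedom. The median gene SD ran from 0.03 in the cortical neuron arrays to 0.45 in the Recruited total arrays. It was 0.30 in Recruited bound RNA.

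Translating ribosome affinity purification pulls tagged ribosomes, with the messenger RNA they carry, out of a tissue lysate. When the tag is expressed from the regulatory sequences of one gene, the RNA recovered is enriched for the cells in which that gene is active. Olig2 is a transcription factor of the oligodendrocyte lineage. It is active in the dividing progenitors that carry the receptor Pdgfra, stays on as they commit and mature into myelinating oligodendrocytes, and is found at lower levels in some astrocytes. Gliomas driven by platelet-derived growth factor are known for tumour cells with many features of oligodendrocyte progenitors. In work on such tumours, recruited cells are cells of the host brain drawn into the tumour. The labels do not say whether the word is used in that sense here.

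The levels below are log2 units on a scale shared by all 38 arrays. A level of 5.64, which is 50 on the linear scale, was taken as the dim limit, and a gene is called dim in a group whose mean lies at or below it. Of 15644 genes with a probe set of their own, 9799 were above the limit in at least 3 of the 38 arrays and were tested. A gene passed when the adjusted p was under 0.05 and the difference was at least 2-fold, and "rose", "higher in Recruited", "fell" or "lower in Recruited" are used for genes that passed. The 3 Pdgf bound arrays correlated with each other over genes at 0.982 to 0.991. Among the Recruited bound arrays, arrays 2 and 3 correlated at 0.974, while array 1 correlated with them at 0.948 and 0.930. Array 1 had the highest level of the 3 in all 12 type I interferon genes, all 7 class II antigen presentation genes and 16 of 19 mitosis genes, and the lowest in 17 of 19 myelin genes. Results that rest on this array are given with and without it. The median gene had an SD of 0.30 over the Recruited bound arrays and 0.18 over the Pdgf bound arrays. The gap between the 3' and 5' control probe sets of actin, a sign of RNA length, was 3.01 to 3.78 in the Recruited bound arrays and 2.55 to 3.67 in the Pdgf bound arrays. For the control probe sets of Gapdh it was 2.53 to 3.81 in Recruited and 2.93 to 4.12 in Pdgf.

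In bound RNA, 2524 of the 9799 genes passed, which is 25.8%. Of these, 1250 (12.8%) were higher in Recruited and 1274 (13%) were lower in Recruited. The 3 arrays of one model lay wholly above or below those of the other in 53.4% of all tested genes and in 2348 of the 2524 that passed. The 2 directions were alike in number and unlike in size. At least 4-fold differences were found for 589 genes higher in Recruited and 332 lower, and at least 16-fold differences for 159 higher and 13 lower. Among the genes that rose, 437 were dim in Pdgf and bright in Recruited, and among those that fell, 397 were dim in Recruited and bright in Pdgf. A fold for such a gene is given below as a lower bound, computed against the dim limit. A further 523 of the 2524 were dim in both groups, and no fold is given for those. The tested genes as a whole were centred near 0, with a median difference of -0.05.

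**Figure D1:**
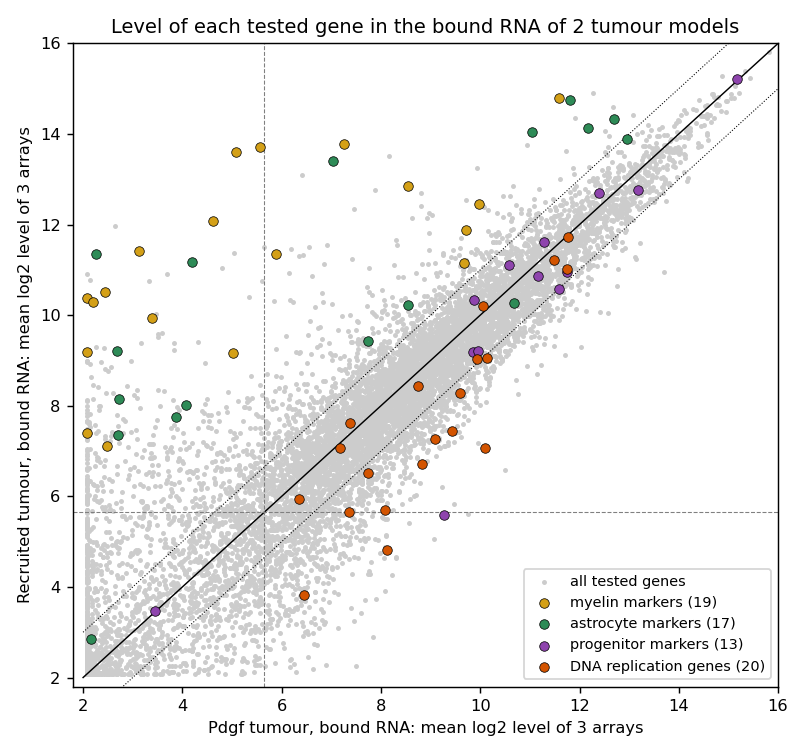
Mean log2 level of each of the 9799 tested genes in the 3 Pdgf bound arrays (x axis) and the 3 Recruited bound arrays (y axis), with 4 gene lists coloured. The solid line marks equal levels, the dotted lines a 2-fold difference and the dashed lines the dim limit of 5.64. All 19 myelin markers lie above the upper dotted line, 9 of 20 DNA replication genes passed as lower in Recruited, and 12 of 13 progenitor markers did not pass.

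Genes of mature oligodendrocytes and myelin were the most uniformly changed list. Of 20 listed genes, 19 were measured and tested, and all 19 were higher in Recruited, against 12.8% of all tested genes. Their median difference was 6.52, or 4.30 with dim values raised to the dim limit, where the median over all tested genes was -0.05. In Pdgf 12 of the 19 were dim, and in Recruited none was. Mog, a surface glycoprotein of the outermost myelin layer, had levels of 11.32, 14.38 and 15.07 in Recruited and 5.90, 4.23 and 5.10 in Pdgf. The groups were far apart although the Recruited arrays themselves spread widely, and Mog was at least 233-fold higher in Recruited (adjusted p = 6.1e-10, limma). Mal, a proteolipid of compact myelin, had 12.63, 14.00 and 14.50 in Recruited and 5.91, 4.80 and 6.004 in Pdgf, which is at least 232-fold. Mobp, a protein of the same membranes, stood at 9.23, 9.71 and 12.19 in Recruited and at the lowest value of the scale, 2.08, in all 3 Pdgf arrays. Ermn, a cytoskeletal protein of the myelin sheath, was at 10.86, 11.24 and 12.12 against 2.89, 3.01 and 3.47. Each of these genes was brightly measured in all Recruited arrays and dim or nearly dim in all Pdgf arrays.

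Myelin basic protein, Mbp, differed from the genes above in being abundant in both models. Its levels were 14.48, 14.84 and 15.10 in Recruited and 11.27, 11.94 and 11.55 in Pdgf, a 9.31-fold difference (adjusted p = 5.4e-12). Myrf, the transcription factor that switches on the myelin program, was at 8.78, 8.90 and 9.82 in Recruited and 5.01, 5.02 and 5.001 in Pdgf, at least 11.5-fold higher. The smallest differences of the list were those of 2 enzymes of myelin lipids. Ugt8a, which makes galactocerebroside, rose 4.44-fold. Fa2h, which hydroxylates its fatty acids, rose 2.76-fold (adjusted p = 0.015), with Recruited levels of 9.63, 11.43 and 12.37 that overlapped the Pdgf levels of 9.47, 10.37 and 9.19. Fa2h was the one myelin gene of 19 whose arrays overlapped, and it did not pass without Recruited array 2 (adjusted p = 0.054), Recruited array 3 (adjusted p = 0.17) or Pdgf array 3 (adjusted p = 0.074), nor, by a narrow margin, without Pdgf array 1. With bound and total arrays of the same number paired as a random block, in a fit on the 18 tumour arrays only, its adjusted p was 0.11. On those arrays without the block it was 0.12. The Recruited level lay between the Pdgf level and that of Olig2 cells of normal cortex for 16 of the 19 genes. The median of the 19 group means was 12.49 in cortical Olig2 cells and 7.03 in the third tumour model, Pdgf Cre, and the median level over the list in the Recruited arrays ran from 10.05 to 12.66. Summed on the linear scale, the list reached 60786 to 185312 in the Recruited bound arrays and 5740 to 8193 in the Pdgf bound arrays. In total RNA the sums were 25968 to 50127 in Recruited and 7148 to 9928 in Pdgf. In bulk samples such as these, fewer cells of a type and less RNA per cell cannot be told apart.

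Astrocyte markers were higher in Recruited for most members. Of 18 listed genes 17 were measured and tested. Of these, 14 were higher in Recruited and none lower, against 12.8% and 13% of all tested genes. The median difference was 2.99, or 2.10 with dim values raised to the limit. Gjb6, a gap junction protein of astrocytes, had levels of 11.12, 11.32 and 11.61 in Recruited and 2.22, 2.29 and 2.29 in Pdgf. It was at least 52.3-fold higher (adjusted p = 1.4e-17), with no Pdgf array above the dim limit. Its partner in astrocyte gap junctions, Gja1, had 13.43, 13.41 and 13.37 in Recruited and 6.95, 7.07 and 7.09 in Pdgf, an 82.5-fold difference between groups that were bright on both sides and tight within. Mlc1, a membrane protein of astrocyte endfeet, was at 10.84, 11.71 and 10.95 against 3.47, 4.67 and 4.42, at least 46-fold higher. Aldh1l1, a folate enzyme widely used to mark astrocytes, was at 8.81, 9.56 and 9.26 against 2.87, 2.58 and 2.58, at least 11.8-fold higher.

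The transcription factor Sox9 was at 7.79, 7.72 and 7.72 in Recruited and 3.83, 3.90 and 3.91 in Pdgf. The glutamate transporters Slc1a2 and Slc1a3 rose at least 5.14-fold and 3.20-fold. Apoe, the lipid carrier secreted by astrocytes, rose 7.96-fold from levels that were high in both models, 14.01, 14.11 and 13.99 against 10.60, 11.79 and 10.74. Of the 3 listed genes that did not pass, S100b was at 10.28, 10.27 and 10.28 in Recruited and 11.22, 10.82 and 9.97 in Pdgf. Ndrg2 differed by 0.94, short of 2-fold, and passed without Recruited array 1 (1.19) or Pdgf array 2 (1.14). Fgfr3 was dim in all 6 arrays. In the Olig2 cells of normal cortex these genes were also well measured, with a mean of 12.06 for Gja1 and 10.12 for Gjb6, where the astrocyte reporter line of the same tissue gave 14.27 and 13.42. The summed level of the list was 109760 to 137920 in the Recruited bound arrays and 24164 to 32218 in the Pdgf bound arrays. In the total RNA it was 71676 to 81388 and 41983 to 52008. The part of the tissue's astrocyte content in the difference in bound RNA was not tested.

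**Figure D2:**
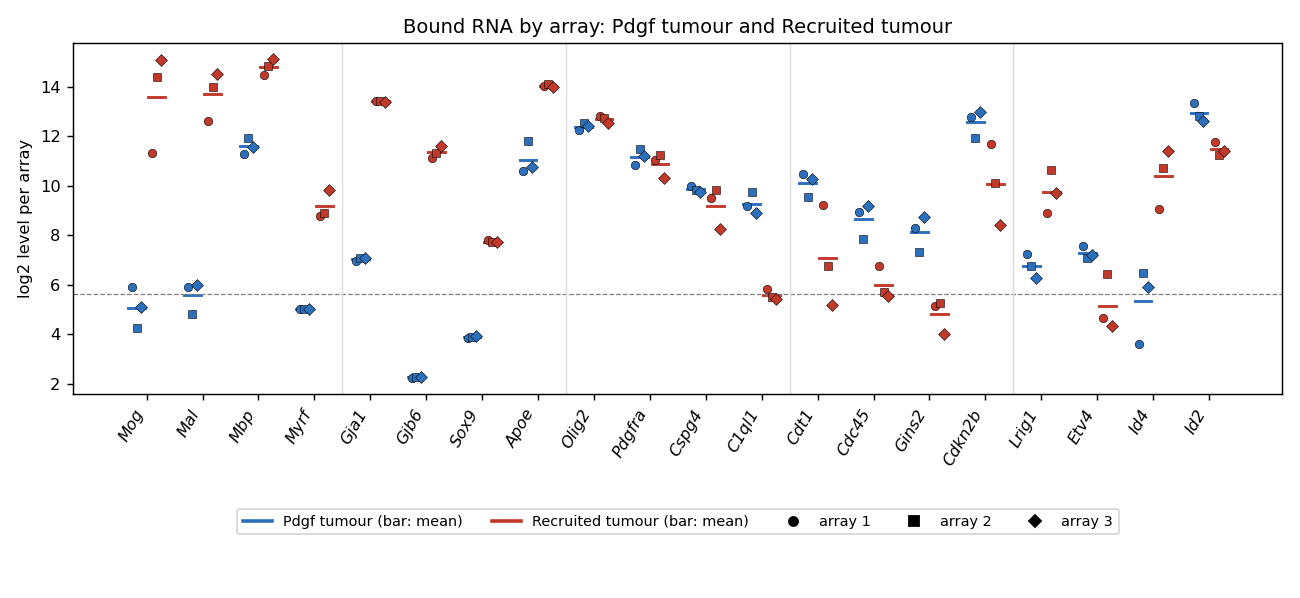
Log2 level of 20 genes in each bound RNA array of the Pdgf tumour (blue) and the Recruited tumour (red). Symbols mark the array number, bars the mean of 3 arrays, and the dashed line the dim limit of 5.64. From left to right the blocks hold myelin genes, astrocyte genes, progenitor genes, cell cycle genes, and genes of growth factor and BMP signalling. Gja1 and Sox9 are tight within each model and far apart between them, while Olig2 and Pdgfra lie at similar levels in both.

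Among genes bright in both models whose arrays did not overlap, the 10 largest rises were Fam107a, Trf, Gja1, Opalin, Selenop, Tmem130, Mgst1, Anln, Adamts4 and Ptgds. Fam107a, an actin-associated protein, had 12.95, 13.00 and 13.30 in Recruited and 6.57, 6.33 and 6.35 in Pdgf, a 102-fold difference (adjusted p = 1.2e-19). Trf, the iron carrier transferrin made by oligodendrocytes, was at 13.63, 13.77 and 13.94 against 7.83, 6.36 and 7.59, or 91.8-fold higher. Selenop, the secreted selenium carrier, was at 13.29, 13.48 and 13.75 against 7.71, 8.56 and 8.20. In none of these did any Recruited array come near a Pdgf array. Opalin, a membrane glycoprotein of oligodendrocytes, rose 44.6-fold and spread more, with Recruited levels of 9.59, 11.33 and 13.17. Tmem130 (38.6-fold), Mgst1, a glutathione transferase of membranes (31.3-fold), Anln, an actin-binding protein (30.9-fold), Adamts4, a protease that cuts proteoglycans (29.9-fold), and Ptgds, the synthase of prostaglandin D2 (29.4-fold), followed. Non-overlapping genes dim in Pdgf were ranked by their mean in Recruited, since their fold is only bounded. The 5 highest were Mog, Mal, Mag, Itih3, a protein that binds hyaluronan, at least 79.8-fold, and Mgp, an inhibitor of calcification, at least 39.6-fold. Mag, a myelin receptor on the axon-facing membrane, was at least 86.4-fold higher.

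The 10 largest falls among non-overlapping genes bright in both models were smaller, from 15-fold to 5.70-fold. Meox1, a homeobox factor, led them with 6.57, 6.70 and 6.50 in Recruited and 10.72, 11.41 and 9.37 in Pdgf, 15-fold lower (adjusted p = 6e-05). Trnp1, a nuclear protein of neural progenitors, was at 9.92, 8.93 and 9.03 against 12.26, 11.94 and 11.90, 6.69-fold lower. The cytoskeletal proteins Pdlim7 and Cnn2 were 6.92-fold and 6.78-fold lower. Pafah1b3, a subunit of an acetylhydrolase, was at 9.01, 9.10 and 9.24 against 11.68, 11.61 and 11.83. Vps72, a chromatin remodelling subunit, and Dipk1b were 6.35-fold and 5.70-fold lower. Cdt1 and Cdc45, which start DNA replication, and Cenpk, a protein of the kinetochore, made up the rest. Where Recruited was dim, genes were ranked by their mean in Pdgf, with clone-like symbols, C1ql1 among them, left out. The 5 highest were the keratin Krt1 (at least 14-fold), the methyltransferase Vcpkmt (at least 10.8-fold), Cgref1 (at least 5.94-fold), the replication factor Dscc1 (at least 5.73-fold) and Hells (at least 4.22-fold). Hells no longer passed without Recruited array 3 (adjusted p = 0.085), without Pdgf array 3 (adjusted p = 0.051), or with bound and total arrays paired as a random block (adjusted p = 0.061). With the spread taken from the compared groups only, Cdt1, Cnn2, Cenpk, Dscc1 and Hells did not pass.

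Olig2 itself, whose activity defines the cells sampled, was at 12.83, 12.73 and 12.54 in Recruited and 12.25, 12.52 and 12.41 in Pdgf. The difference of 0.31 ± 0.40 (SE) did not pass (adjusted p = 0.55). Its neighbour and partner Olig1 differed by 0.03 ± 0.15. Of the 16 listed progenitor markers, 13 were measured and tested. None was higher in Recruited and 1 was lower, against 12.8% and 13% of all tested genes, with a median difference of -0.31. Pdgfra, the receptor that drives progenitor division, was at 11.03, 11.22 and 10.32 in Recruited and 10.83, 11.48 and 11.19 in Pdgf, so the arrays overlapped. The proteoglycan Cspg4, or NG2, was at 9.49, 9.82 and 8.25 against 10.0015, 9.81 and 9.73. Ptprz1, a receptor phosphatase, differed by 0.52 ± 0.42, and Sox10, the lineage transcription factor, by -0.75 ± 0.33. The member that fell was C1ql1, a secreted protein of the complement C1q family, at 5.82, 5.49 and 5.42 in Recruited and 9.17, 9.76 and 8.89 in Pdgf, at least 11.9-fold lower (adjusted p = 7.7e-13). A difference that did not pass does not show that the levels were equal: for Pdgfra the standard error was 0.50. Leaving out Recruited array 1 brought the count of progenitor markers that fell from 1 to 2.

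Markers of the committed precursor, the stage between progenitor and myelinating cell, were tested for 13 of 14 listed genes. Of these 4 were higher in Recruited and none lower, against 12.8% and 13% of all tested genes, with a median difference of 0.71. Gpr17, a receptor that marks this stage, was at 13.06, 12.69 and 13.29 in Recruited and 10.91, 12.80 and 11.15 in Pdgf. It rose 2.63-fold (adjusted p = 0.012) with overlapping arrays, and did not pass without Pdgf array 1 (adjusted p = 0.089) or Pdgf array 3 (adjusted p = 0.063), nor with the paired block (adjusted p = 0.085). Enpp6, a choline phosphodiesterase of newly formed oligodendrocytes, was at 5.48, 7.53 and 8.27 against 3.70, 3.80 and 3.80, at least 2.74-fold higher. Cnksr3 rose 4.27-fold, and the transcription factor Tcf7l2 rose at least 1.95-fold. Bcas1, another marker of this stage, was at 9.92, 9.78 and 9.74 against 9.64, 9.74 and 9.60. Recruited array 1 was the lowest of the 3 in 11 of these 13 genes, and 7 of the 13 rose without it.

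The same contrast was made in the total RNA of the tumours, which holds every cell type of the tissue. There 3383 genes passed (34.5%), 1636 higher in Recruited (16.7%) and 1747 lower (17.8%). The question was whether the models differed by more or less in bound RNA than in the total RNA of the whole tumour. That total RNA includes the Olig2 cells themselves. The difference between the 2 contrasts was tested directly, and 2943 genes passed that test (30%). It did not use the pairing of bound and total arrays of the same number. With that pairing as a block, in a fit on the 18 tumour arrays, 2669 genes passed, and 2572 of these were among the 2943. The results below for single genes and lists come from the test without pairing. Of the 1250 genes higher in Recruited in bound RNA, 544 were also higher in total RNA, 42 were lower and 664 did not pass there. Of the 1274 lower genes, 552 were lower in total RNA, 102 were higher and 620 did not pass. The difference in bound RNA was itself unlike that in total RNA for 1247 of the 2524 genes. These 2524 were chosen by their difference in bound RNA, which is a part of this test.

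Progenitor markers moved in total RNA and hardly in bound RNA. In total RNA 8 of the 13 were lower in Recruited, with a median difference of -1.84. The difference between the contrasts passed for 7, each with the contrast in bound RNA the higher. Over all tested genes, 16.7% were higher and 17.8% lower in total RNA, and the contrast in bound RNA was the higher for 16%. Pdgfra was at 11.54, 11.63 and 7.82 in Recruited total RNA and at 12.91, 13.47 and 13.21 in Pdgf total RNA, a fall of 2.86. The contrast in bound RNA was higher than this by 2.56. Scrg1, a small secreted protein, was at 10.54, 9.06 and 7.37 in Recruited total RNA and 12.47, 12.30 and 12.19 in Pdgf total RNA, while in bound RNA it differed by -0.41 ± 0.43. Gpr17 fell by 2.39 in total RNA and rose by 1.40 in bound RNA. Recruited total array 3 was the lowest of its group for each of these 3 genes. The myelin list behaved otherwise: 16 of 19 genes rose in total RNA too, with a median difference of 2.55, and for 16 of 19 the rise in bound RNA was the larger. Of the astrocyte markers, 9 rose and 2 fell in total RNA, and for 14 the contrast in bound RNA was higher. Slc1a2 was one of those that fell in total RNA, by 1.32, while rising in bound RNA.

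**Figure D3:**
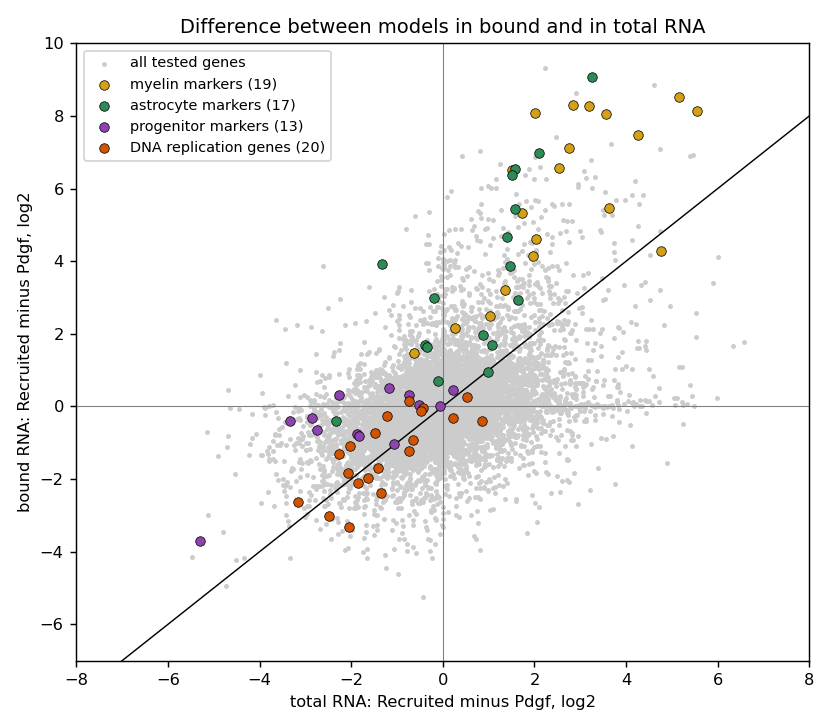
Difference between models in total RNA (x axis) and in bound RNA (y axis), Recruited minus Pdgf in log2 units, for the 9799 tested genes. The line marks equal differences. Of the progenitor markers, 8 of 13 passed as lower in total RNA and 1, C1ql1, in bound RNA, against 17.8% and 13% of all tested genes. Every myelin marker but Cldn11 and every astrocyte marker but Ndrg2 lies above the line.

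Some genes of DNA replication were lower in Recruited. Of 23 listed genes, 20 were tested, none rose and 9 fell, against 13% of all tested genes, with a median difference of -1.15. Cdt1, which licenses replication origins, was at 9.24, 6.78 and 5.18 in Recruited and 10.45, 9.54 and 10.28 in Pdgf, 8.15-fold lower (adjusted p = 0.00036). The Recruited arrays were all below the Pdgf arrays and spread widely among themselves. Gins2, a subunit of the replicative helicase, was at 5.12, 5.27 and 4.03 against 8.27, 7.33 and 8.74, at least 5.55-fold lower. Chaf1b, which places histones on new DNA, was at 4.69, 3.64 and 3.14 against 6.69, 5.55 and 7.11. Mcm3, a subunit of the ring that unwinds DNA, was 5.25-fold lower, with 6.07, 6.02 and 4.99 against 8.42, 7.48 and 8.36. Cdc45, the partner of that ring, was 6.30-fold lower. Other members of the same machinery did not pass. Mcm4 was at 11.69, 11.60 and 10.39 against 11.44, 11.46 and 11.54, and Rrm2, a subunit of ribonucleotide reductase, at 12.20, 12.34 and 10.61 against 11.62, 11.68 and 11.98. Recruited array 1 was the highest of the 3 in 13 of the 20 genes. Without it 13 genes fell, and over the arrays left out in turn the count ran from 5 to 13. With bound and total arrays paired as a random block it was 5. With the spread taken from the compared groups only it was 4.

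The mitosis genes did not follow. Of 19 tested, none passed in either direction by limma with Benjamini-Hochberg adjustment, where 25.8% of all tested genes passed. An unadjusted p under 0.05 was found for 1 of the 19, and the median difference was -0.14. Cdk1, the kinase of mitotic entry, was at 9.54, 7.98 and 7.32 in Recruited and 9.63, 8.66 and 9.71 in Pdgf. Top2a, a topoisomerase of dividing cells, was at 8.47, 8.87 and 6.80 against 7.57, 7.80 and 8.71. Birc5, or survivin, was at 9.20, 7.91 and 8.03 against 9.86, 9.48 and 9.90, with an adjusted p of 0.092. Recruited array 1 was the highest of its group in 16 of the 19, and 4 fell without it, among them Birc5 (-1.78). Among inhibitors of the cell cycle, Cdkn2b, which blocks entry into the S phase, was at 11.66, 10.09 and 8.42 against 12.79, 11.93 and 12.97, 5.68-fold lower, and Rbl1, a member of the retinoblastoma family, was at least 3.85-fold lower. Cdkn1c rose 2.81-fold. Rbl1 did not pass without Recruited array 3 (adjusted p = 0.065) or with the paired block (adjusted p = 0.053), and Cdkn1c fell to a difference of 0.998, short of 2-fold, without the same array. Of the 10 tested genes on the list of inhibitors and quiescence genes, 1 rose and 2 fell, against 12.8% and 13% of all tested genes.

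Replication genes share a promoter element, the site of E2F factors, which turn these genes on as a cell enters the S phase. Windows of 300 bases, from 250 before to 50 after the start of transcription, were searched for TTTCCCGC and TTTGGCGC on both strands in RefSeq promoter sequences of GRCm38.p6. A window was given for 17 of the 20 genes, and 8 of those 17 held a match (47.1%), against 277 of 7978 tested genes with a window (3.47%) and 1.56% of all windows. Of the 7 genes that fell and had a window, 4 held a match, and of the 10 that did not pass, 4 did. Cdt1 and Mcm3 are shown as the members with a match that fell most. Capitals mark the match.
Cdt1, chr8:122567765-122568064, plus strand: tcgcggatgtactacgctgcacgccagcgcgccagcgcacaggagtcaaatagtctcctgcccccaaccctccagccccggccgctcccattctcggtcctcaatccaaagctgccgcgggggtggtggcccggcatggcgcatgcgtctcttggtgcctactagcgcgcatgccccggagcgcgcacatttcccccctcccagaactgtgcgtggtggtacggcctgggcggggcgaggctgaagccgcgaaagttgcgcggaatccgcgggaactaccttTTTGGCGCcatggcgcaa
Mcm3, chr1:20820263-20820562, minus strand: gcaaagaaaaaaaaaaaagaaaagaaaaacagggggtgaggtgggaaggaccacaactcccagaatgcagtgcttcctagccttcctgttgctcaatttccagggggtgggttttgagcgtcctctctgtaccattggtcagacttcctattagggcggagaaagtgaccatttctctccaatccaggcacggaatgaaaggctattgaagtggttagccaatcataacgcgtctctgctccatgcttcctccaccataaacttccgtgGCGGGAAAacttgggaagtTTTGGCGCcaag
Cdt1 holds 1 match and Mcm3 holds 2, one of each form, all shortly after the start. A match describes these letters in this window and is not a measured site.

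Genes that answer to receptor tyrosine kinase signalling, many of them feedback inhibitors, had members that rose and members that fell. Of 12 tested, 3 rose and 5 fell, against 12.8% and 13% of all tested genes. With bound and total arrays paired as a random block, 3 fell. Etv4, a transcription factor induced by growth factors, was at 4.65, 6.43 and 4.33 in Recruited and 7.57, 7.07 and 7.21 in Pdgf, at least 2.59-fold lower (adjusted p = 0.00054). The inhibitors Spry1 and Spry4 were 2.29-fold and 2.19-fold lower. Spry1 had an adjusted p of 0.046 and did not pass when any array but Recruited array 1 was left out (adjusted p from 0.066 to 0.25). With the paired block neither Spry1 (adjusted p = 0.18) nor Spry4 (adjusted p = 0.052) passed. Dusp5 and Spred2, a phosphatase and an inhibitor of the same pathway, fell between levels that were dim in both models. Lrig1, a membrane protein that removes growth factor receptors, was at 8.91, 10.63 and 9.70 against 7.25, 6.76 and 6.29, 7.89-fold higher. Errfi1, an inhibitor of the epidermal growth factor receptor, rose 2.24-fold, and the transcription factor Etv1 rose between dim levels. Dusp6 did not pass, at 10.15, 11.62 and 10.40 against 10.53, 10.97 and 11.52. Of the listed drivers, Akt1, the kinase downstream of these receptors, was at 6.54, 8.05 and 7.68 against 9.34, 9.57 and 9.63, 4.25-fold lower (adjusted p = 7.9e-07). Pdgfb stood at the lowest value of the scale, 2.08, in all 6 bound arrays, and Pdgfa differed by 0.58 ± 0.52. Pdgfrb was dim in both groups, with 4.03, 6.11 and 4.14 against 3.31, 2.99 and 2.97, and did not pass without Recruited array 2 (adjusted p = 0.14) or with the paired block (adjusted p = 0.078). Myc did not pass with all arrays, at a difference of -0.97, and was lower without Recruited array 1 (-1.61, adjusted p = 0.0071). Its relative Mycn differed by -0.47, under 2-fold.

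Enzymes of cholesterol synthesis, a pathway that myelinating cells use heavily, rose in part. Of 13 tested, 8 were higher in Recruited and none lower, against 12.8% and 13% of all tested genes, with a median difference of 1.27. Sc5d was at 9.17, 10.57 and 11.27 in Recruited and 8.35, 8.39 and 8.48 in Pdgf, 3.81-fold higher (adjusted p = 1.9e-06). Msmo1, which removes methyl groups from the sterol ring, rose 3.50-fold and Lss, which closes the ring, rose 3.14-fold. Hsd17b7 was at 5.25, 5.40 and 6.97 against 3.34, 3.46 and 3.46, at least 1.17-fold. Sqle, at 11.03, 12.47 and 12.70 against 10.82, 11.09 and 11.32, came to 1.99-fold and so did not pass, and was higher without Recruited array 1 (1.51) or Pdgf array 3 (1.12). The regulator Srebf2 did not pass, at 4.94, 5.91 and 5.68 against 6.41, 6.39 and 6.40, and fell past 2-fold without Recruited array 2 (-1.09). Recruited array 1 was the lowest of its group in all 13 genes, and 10 rose without it. In total RNA 3 of the 13 rose and 1 fell, against 16.7% and 17.8% of all tested genes. None of the 11 members with a promoter window held the sterol response element TCACNCCAC on either strand, a sequence found in 1.35% of tested genes, which says only that these letters are not in these windows.

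Among the genes of BMP and TGF-beta signalling, 16 were tested, 8 rose and 3 fell, against 12.8% and 13% of all tested genes. The Id genes, inhibitors of basic helix-loop-helix factors such as Olig2 and targets of BMP signalling, moved in different directions. Id4 was at 9.06, 10.73 and 11.40 in Recruited and 3.62, 6.49 and 5.92 in Pdgf, at least 20.8-fold higher (adjusted p = 1.5e-09). Id3 rose 3.69-fold, with 10.16, 9.77 and 10.66 against 8.71, 8.60 and 7.64. Id2 was at 11.78, 11.25 and 11.40 against 13.35, 12.81 and 12.60, 2.72-fold lower. The inhibitor Smad7 rose 3.36-fold, the matrix protein Tgfbi at least 3.07-fold, and the ligand Bmp7 was at least 2.94-fold lower. Id1 rose from 3.72, 2.35 and 2.29 to 6.20, 4.87 and 5.60, with both group means dim. The ligand Bmp4, also a marker of the committed precursor, did not pass, at 6.92, 8.16 and 9.81 against 6.72, 8.43 and 7.52. It was higher without Recruited array 1 (1.43) or Pdgf array 2 (1.18).

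Notch, Wnt and Hedgehog lists had 4 of 11, 4 of 10 and 2 of 7 tested genes that passed, against 25.8% of all tested genes. Of the Notch genes, 2 rose and 2 fell. The receptor Notch2 and the target Heyl rose between dim levels. The ligand Dll3 was at 8.54, 8.87 and 8.02 in Recruited and 9.35, 9.67 and 9.49 in Pdgf, 2.05-fold lower, and the target Hey2 was 2.75-fold lower. Dll3 fell short of 2-fold without Recruited array 3 (-0.80) or Pdgf array 2 (-0.95), and Hey2 did not pass without Recruited array 2, Recruited array 3 or Pdgf array 2 (adjusted p from 0.066 to 0.084), nor with bound and total arrays paired as a block (adjusted p = 0.078). Of 10 tested Wnt genes, 2 rose and 2 fell. Wnt7b, a ligand, was at 3.12, 3.26 and 3.27 against 6.68, 6.50 and 6.59, at least 1.93-fold lower. Nkd1, an inhibitor of the pathway, rose at least 1.46-fold on the strength of array 3 (5.31, 5.33 and 7.93 against 4.47, 4.52 and 4.51), and came to a difference of 0.81 without it. Axin2, a target, fell between dim levels. Of 7 tested Hedgehog genes, Gli2, a transcription factor, and Hhip, an inhibitor that binds the ligand, rose at least 1.08-fold and 1.40-fold. Hhip was at 5.20, 6.10 and 7.09 in Recruited and at the lowest value of the scale in every Pdgf array.

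Of 21 tested genes of the extracellular matrix, 7 rose and 1 fell, against 12.8% and 13% of all tested genes. The median difference was 0.57. Sparc, a matrix glycoprotein, was at 11.84, 13.07 and 11.55 in Recruited and 8.97, 8.78 and 8.13 in Pdgf, 11.5-fold higher (adjusted p = 7.2e-09). Mmp2, a protease of basement membranes, was at 7.93, 7.79 and 7.68 against 4.51, 4.77 and 4.45. Col3a1, a fibrillar collagen of fibroblasts, was at 4.13, 11.01 and 6.95 against 4.79, 3.02 and 2.43, highest in array 2 and overlapping in array 1. It did not pass with the spread taken from the compared groups only. Anxa1, a phospholipid-binding protein, was at 6.70, 7.56 and 4.77 against 3.03, 2.37 and 2.36, at least 1.62-fold higher. S100a4 was the gene that fell, 2.29-fold, and it did not pass without Recruited array 1 (adjusted p = 0.061), Pdgf array 1 (adjusted p = 0.076) or Pdgf array 2 (adjusted p = 0.072), nor with bound and total arrays paired as a block (adjusted p = 0.13). Vim, Cd44 and Fn1 did not pass, and each overlapped between the models. Beside these, 7 of 13 tested markers of pericytes, smooth muscle and fibroblasts rose and none fell, against the same shares of all tested genes. The summed levels of that list were 1568 to 8355 in the Recruited bound arrays and 160 to 475 in the Pdgf bound arrays. Of the 15 measured markers on that list, 12 were dim in Recruited and 14 in Pdgf, among them Tagln and the collagen Col1a2, which rose between dim levels. Col1a2 did not pass without Recruited array 2 (adjusted p = 0.16) or with the paired block (adjusted p = 0.13). The count of 7 ran down to 1 over the alternative settings, and was 3 with the paired block. Their part in the matrix result was not tested. In total RNA the sums were 4512 to 69783 and 2843 to 12891.

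Axon guidance and cell adhesion genes gave 7 rises and 2 falls among 20 tested, against 12.8% and 13% of all tested genes. Unc5b, a netrin receptor, was at 5.98, 8.03 and 8.21 in Recruited and 2.73, 2.84 and 2.86 in Pdgf, at least 3.40-fold higher (adjusted p = 4.4e-14), and its relative Unc5c rose at least 1.12-fold. The ligand of both, Ntn1, moved the other way, at 3.89, 4.02 and 4.03 against 6.43, 6.50 and 6.42, at least 1.75-fold lower. Sema5a, a semaphorin, rose at least 3.50-fold, and Plxnb3, a semaphorin receptor, rose 2.92-fold. The adhesion molecule Ncam1 was at 9.62, 9.55 and 9.50 against 8.44, 8.40 and 7.99, 2.43-fold higher. Efnb3, an ephrin, rose 4.80-fold with overlapping arrays, while Efnb1 fell between dim levels. Among channel and synaptic adhesion genes of progenitors, 1 of 12 rose and 3 fell, against the same shares of all tested genes. Kcnj10, a potassium channel of glia, was at 12.34, 12.26 and 12.12 against 10.43, 10.91 and 10.41, 3.15-fold higher. The glutamate receptor subunits Gria3 and Gria4 were both 2.16-fold lower, and the calcium channel Cacna1a fell between dim levels, though not with bound and total arrays paired as a block (adjusted p = 0.059). Gria3 fell short without Recruited array 3 (-0.57) or Pdgf array 2 (-0.93), as did Gria4 (-0.99 and -0.93).

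Of the 10 tested neural stem and immature neural genes, 1 rose and 2 fell, near the 25.8% of all tested genes that passed. Prom1, a membrane glycoprotein of stem cells that mature glia also express, was at 7.90, 9.98 and 10.85 in Recruited and 3.35, 3.70 and 3.47 in Pdgf, at least 15.3-fold higher (adjusted p = 2.4e-10). Dcx, a microtubule protein of immature neurons, was at 6.29, 6.20 and 4.92 against 6.60, 6.99 and 7.01, 2.09-fold lower. It fell short of 2-fold without Recruited array 3 (-0.62), Pdgf array 2 (-0.999) or Pdgf array 3 (-0.99). Sox4 fell between dim levels. Sox2, a stem cell factor, was at 12.46, 13.26 and 12.87 against 13.10, 13.35 and 13.10, and Fabp7, a fatty acid carrier of radial glia, was at 14.86, 15.01 and 14.33 against 14.63, 15.10 and 15.17.

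Immune genes were high in a single Recruited array. Of 12 tested type I interferon response genes, none rose and 2 fell, against 12.8% and 13% of all tested genes. The median difference was -1.34. Ifit1 was at 9.56 in Recruited array 1 and 2.08 in both other arrays, against 7.58, 5.81 and 5.83 in Pdgf. Usp18, a protease that removes the ubiquitin-like protein ISG15, was at 10.24, 3.11 and 2.33 against 9.61, 6.28 and 6.94. Rtp4 and Ifi27 were the genes that fell, 5.64-fold (adjusted p = 0.024) and 2.91-fold (adjusted p = 0.041). Without Recruited array 1, 7 of the 12 fell, among them Ifit1 (-4.33) and Usp18 (-4.89). Without Recruited array 2, neither Rtp4 (adjusted p = 0.16) nor Ifi27 (adjusted p = 0.17) passed, and without array 3 they had adjusted p of 0.15 and 0.33. With bound and total arrays paired as a block neither passed (adjusted p of 0.10 and 0.14). Rtp4 also missed the threshold without Pdgf array 1 (adjusted p = 0.071), and Ifi27 without any of the Pdgf arrays (adjusted p from 0.055 to 0.11). No class I antigen presentation gene of 10 and no class II gene of 7 passed by limma with adjustment over all genes, and 0 of either list had an unadjusted p under 0.05. H2-Ab1, a class II chain, was at 8.89, 2.10 and 2.10 in Recruited and 2.38, 2.47 and 4.30 in Pdgf. Without array 1, 3 class I genes and 2 class II genes fell.

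**Figure D4:**
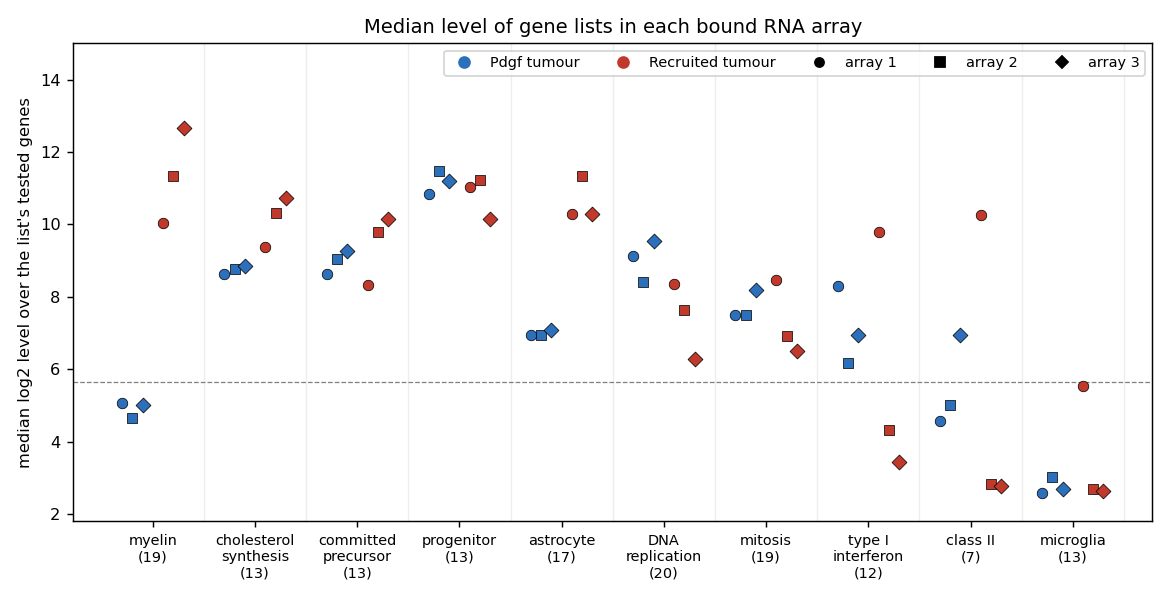
Median log2 level over the tested genes of 10 lists in each bound RNA array, with the number of genes under each name. Blue marks the Pdgf tumour, red the Recruited tumour, the symbols the array number, and the dashed line the dim limit of 5.64. Recruited array 1 is the highest of all 6 arrays for the interferon, class II, mitosis and microglia lists, and the lowest of the Recruited arrays for the myelin, cholesterol and committed precursor lists.

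Markers of microglia and macrophages moved with the same array. Of 13 tested, 1 rose and 1 fell, against 12.8% and 13% of all tested genes. Array 1 was the highest Recruited array for 11 of the 13. Ctss, a protease of these cells, was at 12.58, 10.50 and 7.85 in Recruited and 9.50, 10.25 and 9.24 in Pdgf, and rose without Recruited array 3 (1.88). Cd14 was at 7.87, 2.67 and 2.65 against 2.31, 2.12 and 2.44. Csf1r, the receptor for colony-stimulating factor, rose between dim levels and did not pass without array 1 (adjusted p = 0.099). Fcer1g fell between dim levels. Ptprc, or CD45, was at the lowest value of the scale in all 6 bound arrays, while its means in total RNA were 8.63 and 8.03. Of the 18 measured markers, 16 were dim in Recruited bound RNA and 15 in Pdgf. The summed level was 375 to 8035 in the Recruited bound arrays and 823 to 1612 in the Pdgf bound arrays, against 7536 to 62210 and 41649 to 44088 in total RNA. The part of these cells in the immune genes of array 1 was not tested. None of 14 measured lymphocyte and granulocyte markers was above the dim limit often enough to be tested.

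Neuron markers gave 4 rises and 2 falls among 16 tested, against 12.8% and 13% of all tested genes, so the falls were near the background. Stmn2, a tubulin-binding protein of growing axons, was at 6.42, 7.37 and 8.40 in Recruited and 2.21, 2.28 and 2.28 in Pdgf, and the neurofilament Nefl at 7.88, 7.87 and 8.11 against 3.06, 3.18 and 3.19. They were at least 3.36-fold and 4.95-fold higher, and the neurofilament Nefm at least 2.70-fold. Snap25, a protein of synaptic vesicle release, rose 2.03-fold and did not pass without Recruited array 1 (0.97), Recruited array 3 (0.90) or Pdgf array 1 (0.78), nor with bound and total arrays paired as a block (adjusted p = 0.053). Nefl, Nefm, Stmn2 and Snap25 also rose in total RNA, by 3.46, 4.41, 2.62 and 1.52. Syn1 was 2.28-fold lower, but did not pass when any array but Recruited array 2 was left out (adjusted p from 0.056 to 0.12) or with the paired block (adjusted p = 0.16), and Npy at least 1.39-fold lower (adjusted p = 0.044). Npy did not pass without Recruited array 1 or 2 or without Pdgf array 1 or 3 (adjusted p from 0.074 to 0.19), nor with the paired block (adjusted p = 0.19). Markers of neuron types differed in level. Gad1, which makes the transmitter GABA, was at 9.003, 9.17 and 9.59 in Recruited and 9.07, 9.03 and 8.57 in Pdgf. Gad2, the other enzyme that makes GABA, Slc17a7, a vesicular glutamate transporter, and Syt1, a calcium sensor of synaptic vesicles, stood at the lowest value of the scale in all 6 bound arrays, and their means in Recruited total RNA were 7.59, 6.74 and 3.75. The summed level of the neuron list was 5570 to 6835 in the Recruited bound arrays and 2685 to 4015 in the Pdgf bound arrays, and 36648 to 110465 and 14162 to 25737 in total RNA. The part of neuronal RNA in these rises was not tested.

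Of 5 tested endothelial markers 2 fell, against 13% of all tested genes. Vwf, the clotting factor of vessel walls, was at 8.08, 4.94 and 4.83 in Recruited and 9.20, 8.54 and 7.996 in Pdgf, 6.19-fold lower with a narrow overlap, and Egfl7 fell between dim levels. The summed level of the list was 109 to 348 in Recruited and 358 to 728 in Pdgf. Ependymal and choroid plexus markers gave 3 rises among 6 tested, against 12.8% of all tested genes. Dynlrb2, a motor protein of cilia, rose at least 2.25-fold, and Clic6 and Rarres2 rose between dim levels. Ttr, the transthyretin of the choroid plexus, varied more within each model than between them, at 11.91, 6.34 and 12.60 against 7.43, 2.75 and 8.54, and rose without Recruited array 2 (6.01).

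Of 24 tested oxidative phosphorylation genes 1 fell and of 9 cytosolic ribosomal protein genes 2 fell, against 13% of all tested genes. None of 15 translation factor genes passed by limma. An unadjusted p under 0.05 was found for 7 of the 15, where 4749 of all 9799 tested genes had even an adjusted p under 0.05. The median differences of these lists were -0.15, -0.38 and -0.32. All 9 ribosomal genes had the lower mean in Recruited and 7 of the 9 did not overlap, where 53.4% of all tested genes did not. Only 10 of the 39 listed ribosomal genes were measured. The summed level of those 10 was 78848 to 86556 in Recruited and 112890 to 123760 in Pdgf. The ribosomal genes that fell were Rps15 (2.36-fold) and Rpl14 (2.25-fold, just under 2-fold without Recruited array 3). The mitochondrial gene that fell was Atp5g1, dim in both models. Of 19 unfolded protein response genes 2 rose, Pdia4 and Dnajb11, and Dnajb11 did not pass without Recruited arrays 1 or 2 or Pdgf arrays 1 or 3 (adjusted p from 0.063 to 0.21), nor with bound and total arrays paired as a block (adjusted p = 0.083). Recruited array 1 was the highest of its group in 16 of these 19 genes, and 1 of the 19 rose without it. Of 9 heat shock genes 2 rose and 1 fell, where 12.8% of all tested genes rose and 13% fell. Cryab, a small heat shock protein abundant in oligodendrocytes, was at 14.34, 14.10 and 14.84 in Recruited and 13.11, 13.57 and 12.53 in Pdgf, 2.56-fold higher. Hspb8, of the same family, rose 4.59-fold, and the chaperonin Hspe1 was at least 1.19-fold lower. Of 13 tested hypoxia and glycolysis genes 3 rose and none fell, against the same shares of all tested genes. Ndrg1, which responds to low oxygen and is also a protein of myelinating cells, was at 8.94, 9.84 and 10.06 against 3.76, 3.50 and 3.50, at least 15.7-fold higher. The glucose transporter Slc2a1 rose 4.44-fold with overlapping arrays (adjusted p = 0.010) and did not pass without Recruited array 1 (adjusted p = 0.057) or without Pdgf arrays 2 or 3 (adjusted p of 0.091 and 0.093), nor with the paired block (adjusted p = 0.059). Pdk1, a kinase that turns pyruvate away from mitochondria, rose 2.15-fold.

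For the last lists too, the shares over all tested genes were 12.8% higher and 13% lower in Recruited. Of 12 lysosomal genes 3 rose: Ctsz, a cathepsin, 8.16-fold, with 9.34, 9.89 and 9.45 in Recruited and 6.50, 6.39 and 6.70 in Pdgf, and Ctsl and Psap each 2.52-fold. Psap did not pass without Recruited array 2 (adjusted p = 0.062). Of 5 complement and acute phase genes 2 rose. Serping1, an inhibitor of complement C1, was at 9.45, 6.77 and 6.02 against 2.52, 2.62 and 2.63, at least 3.41-fold higher. Lcn2, a siderophore-binding protein, was at 10.73, 6.03 and 3.82 against 5.39, 2.08 and 2.08, and did not pass without Recruited array 1 (adjusted p = 0.31) or without Pdgf arrays 2 or 3 (adjusted p of 0.11 and 0.12), nor with bound and total arrays paired as a block (adjusted p = 0.13). Among 12 p53 targets, Bbc3, which promotes cell death, was at 3.08, 3.21 and 3.23 against 6.31, 6.28 and 6.27, at least 1.56-fold lower, and Perp rose between dim levels. Of 12 immediate early genes Arc alone rose, at least 1.23-fold, and 3 fell without Recruited array 1. Of 4 tested nuclear noncoding RNAs, Meg3 rose between dim levels, just under 2-fold without Recruited array 3, and Snhg1 was 2.04-fold lower.

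**Figure D5:**
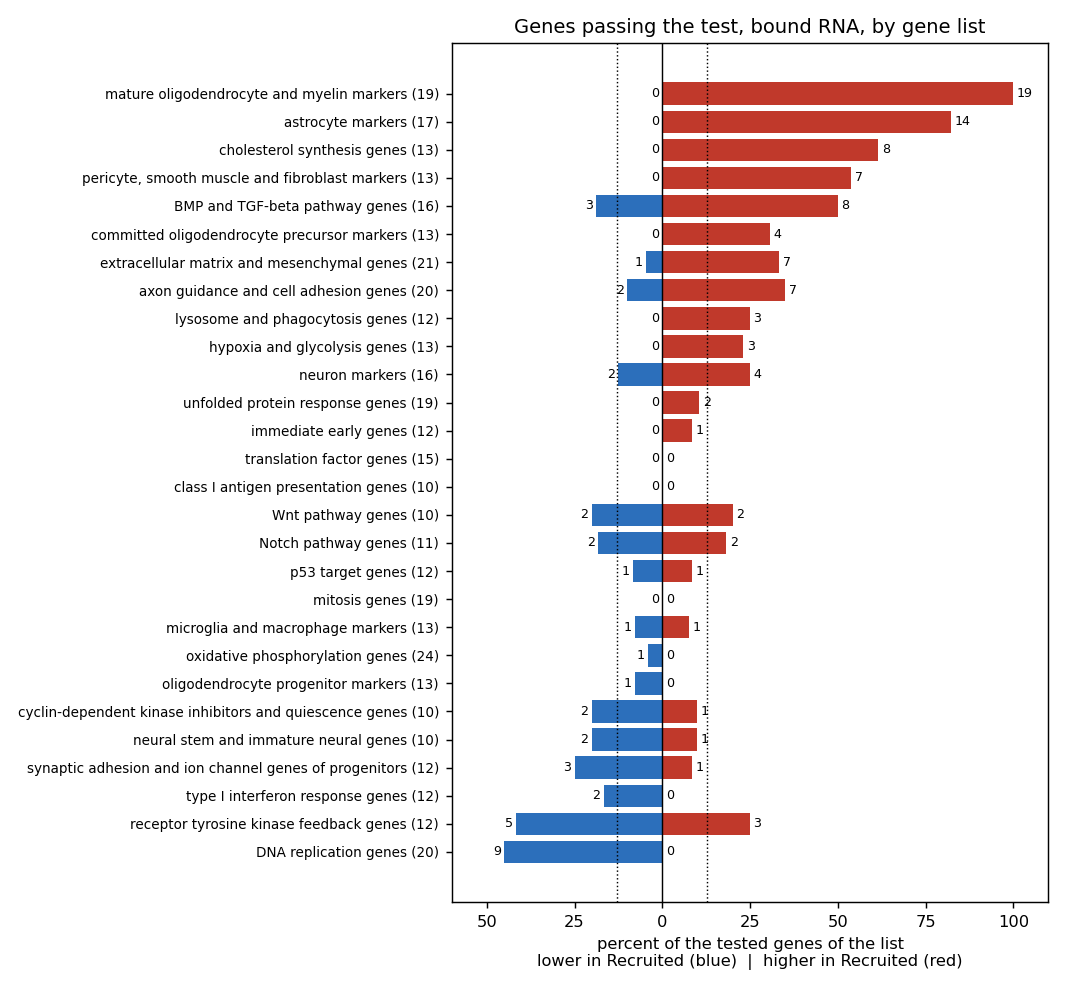
Percent of the tested genes of each list that were higher in Recruited (red, right) or lower in Recruited (blue, left) in bound RNA, for the 28 lists with at least 10 tested genes. The number tested stands in brackets and the count at each bar end. The dotted lines mark the percentages over all tested genes, 12.8% higher and 13% lower. Myelin and astrocyte markers reach furthest to the right and DNA replication genes furthest to the left.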

How the data were processed

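The arrays were 1-colour Affymetrix arrays of RNA amplified in 2 cycles, per the labels' protocols. The deposited log2 values were made by the authors with GCRMA, per the submitters' processing notes. The deposited minimum differed between the 12 groups and was the same within each, so the scale between groups as deposited is open. The 38 arrays were therefore quantile normalized together. Of 16395 probe sets, 64 controls and 687 with no gene were left out. The other 15644 were named through the platform annotation, and 15617 matched RefSeq by gene ID. Genes above 50 linear units in at least 3 arrays entered the fit, made with limma (version 3.58.1, R version 4.3.3) as a model of 12 groups with 26 residual degrees of freedom and Benjamini-Hochberg adjustment over all tested genes. The script was tested on simulated data. The number of arrays limits the precision.

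Named genes were the 10 largest rises and falls among non-overlapping genes bright in both models, the 5 in each direction with 1 model dim and the highest mean in the other, up to 4 members of each list, and the tumour driver genes. Clone names were left out. Further genes were named after their values were seen. The comparison and the 39 gene lists were chosen with earlier results of these data known. Bound and total arrays of the same number deviated together (correlations from 0.266 to 0.626), so the numbers pair them. Between the models the correlations ran from -0.067 to 0.220, so the Recruited and Pdgf arrays share only a number. Alternatives changed the normalization, the dim filter, the arrays fitted, the prior, the block, and left out each array in turn. The paired block was fitted on the 18 tumour arrays, so it also left out the spread of the cortex arrays.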

Additional observations from a re-analysis of the deposited data

Results flagged for a closer look

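For 18 of the 30 genes ranked largest by rule, the difference between the models in bound RNA was itself unlike that in total RNA. The test was limma with Benjamini-Hochberg adjustment over all tested genes, of which 30% passed it. It did not use the pairing of bound and total arrays. The 30 genes were chosen by their values in bound RNA, which also enter this test, so the count was favoured in advance. The values here are the difference in bound RNA minus the difference in total RNA, Recruited minus Pdgf, in log2 units. With 1 model dim in bound RNA, the sizes given for Mog, Mal, Mag, Itih3, Mgp, Vcpkmt and Cgref1 are not exact. The excess was 7.08 for Itih3, 5.64 for Selenop, 5.42 for Fam107a, 5.02 for Trf, 4.86 for Gja1, 4.62 for Ptgds, 4.30 for Mgst1 and 4.25 for Mgp. Selenop, Mgst1 and Ptgds did not pass in total RNA (-0.29, 0.67 and 0.26), nor did Mgp (1.61). It was 3.37 for Mog, 3.31 for Anln, 3.21 for Mag, 2.81 for Adamts4, 2.59 for Mal and 1.76 for Tmem130, which rose in total RNA as well. Among the falls, Vcpkmt (-2.26), Cgref1 (-1.81) and Dipk1b (-1.56) fell further in bound RNA than in total RNA. Vps72 went the other way (1.30), with a larger fall in total RNA (-3.97) than in bound RNA (-2.67).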

How the results depend on the processing

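The count of 2524 genes in bound RNA ranged from 1836, with normalization and fit over the 18 tumour arrays, to 2798 with no dim filter, and from 2338 to 2749 with each array left out in turn. No gene that passed under both the main setting and an alternative changed sign. With the values as deposited, 58.8% of 2618 calls were higher in Recruited, against 49.5%. With arrays shifted to a common median, 48.3% were, and the median of all genes moved to -0.13. Leaving out genes dim in both groups, an alternative chosen after seeing the data, left 2005 calls. With the spread taken from the compared groups only, the bound RNA count fell to 1990, the total RNA count to 2045 and that of the difference between contrasts to 1744. The latter was 1883 with both normalization and fit over the 18 tumour arrays, and 2235 with the fit alone over them.

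With the array number as a replicate block, the counts were 1937 in bound RNA, 2743 in total RNA and 1809 for the difference between contrasts. With the pairing of bound and total arrays as a block, fitted on the 18 tumour arrays, they were 2171, 3022 and 2669. Fitted on those 18 arrays without the block, they were 2156, 2991 and 2235. In bound RNA 19 of the genes described lost their call with the block, and 16 with the same arrays and no block. The calls lost with the block therefore cannot be put down to the pairing alone.

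Of the 181 genes described, 113 kept both the sign of their difference and their side of the threshold in every alternative that tested them. Signs turned only for genes that did not pass. Pdgfb, Ptprc, Gad2 and Slc17a7, at the lowest value of the scale, came to -0.027 as deposited and -0.193 with a common median. Olig1 came to -0.027 with a common median and Rrm2 to 0.061 as deposited. With each array left out in turn, values on both sides of 0 were found for Olig1 (-0.024 to 0.071), Mcm4 (-0.48 to 0.17), Rrm2 (-0.36 to 0.51), Top2a (-0.39 to 0.64), Bmp4 (-0.014 to 1.43), Vim (-0.045 to 1.27), Cd44 (-2.14 to 0.27), Fn1 (-0.57 to 1.19), H2-Ab1 (-0.95 to 2.44) and Ctss (-0.49 to 1.88). The cause of these shifts was not tested. Of the 2524 calls, 523 rest on levels that are dim in both models, where signal is least far above background, and the folds of 437 rises and 397 falls are known only as lower bounds. A fit on the compared groups only ended the call of 32 of the genes described, among them Cdkn2b, Sc5d, Smad7, Slc1a3 and Vwf.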
